A study of Mus musculus with 2 samples.

Results

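The genes described here encode the proteins of the cytosolic ribosome. They were taken as the rows of the deposited value table whose platform annotation gives a single symbol starting with Rpl or Rps and a number, without pseudogene symbols holding -ps and without the S6 kinase (Rps6k) and Rps19bp genes. This gave 58 genes on 205 rows, out of 19871 genes and 25917 rows in the table. Where a symbol had several rows, the row with the highest mean of both arrays was kept, and the other 147 rows are reported as copies. Of the 58 genes, 50 are canonical subunit genes (30 of the large subunit, 20 of the small) and 8 are paralogs or retrogenes. A list of the canonical genes with symbols of this form holds 73 names. The other 23 had no row with a single symbol: 16 of them, Rpl3, Rpl11 and Rpl13a among them, are named on rows with several symbols, and 7 are not analysed here.

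The study compared macrophages grown from mouse bone marrow (age 8 weeks) with supernatant of L929 fibroblasts, a source of macrophage colony-stimulating factor. The control is 1 array, the beta-catenin deficient group (B-Cat KO in the labels) 1 more, and biotin-labelled total RNA was hybridised to both. The sources used here give no mouse strain, Cre driver, deleted exons or pooling of animals. Values are RMA values on a log2 scale, so a difference of 1 is 2-fold, and every difference is the array labelled deficient minus control.

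The ribosome reads messenger RNA on its small subunit and joins amino acids on its large subunit. Each ribosomal protein is present in about equal number in a ribosome, and cells make the messenger RNAs together. In mammals most of these messages start with a C followed by a run of pyrimidines (C or T in the gene), the TOP sequence, through which mTORC1 and the RNA-binding protein Larp1 adjust their translation. Macrophages need ribosomes for growth under colony-stimulating factor and for the secretion of proteins, and beta-catenin is known to act on Myc, which drives ribosome production in many dividing cells.

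Ctnnb1, the gene of beta-catenin, read 11.3 in control and 11.4 in the array labelled deficient, so the array does not show the deletion, and directions below rest on the label. Axin2, a target gene of beta-catenin signalling, read 7.61 and 5.97 (-1.64). Axin2 reached the floor of 7.28, defined below, only in control. Probes outside the deleted exons check nothing about the deletion. Macrophage markers were high on both arrays: the 9 measured markers had medians of 12.2 and 12.1, and Csf1r, the colony-stimulating factor receptor, read 12.2 and 12.3. Most markers of other cells that reached the floor were higher in the array labelled deficient. Fibroblast markers had a median level of 8.12 in control and 10.4 in the other array (8 of the 9 at or above the floor defined below were at least 1.5-fold higher), and neutrophil markers 8.48 and 9.84 (8 of 10). Of the mast cell and basophil markers that reached the floor, 3 of 4 were at least 1.5-fold higher. All 4 lay under the floor in control (5.68 to 7.11) and were counted only through the array labelled deficient. Kit (-0.05) and Ms4a2 (0.11), from the same list, were under the floor on both arrays. The fibroblast markers Pdgfra and Thy1 and the neutrophil markers Prtn3 and Retnlg also reached the floor only in the array labelled deficient. T cell, B cell and erythroid markers had no member at or above the floor on either array (0 of 4 and 0 of 2 measured). The part of these cells in the values below was not tested. In bulk RNA, fewer cells of a type and less RNA per cell cannot be told apart.

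With 1 array per group there is no replicate error, no test and no p-value, so the words higher and lower speak of this pair of arrays. A gene counted as measured when the higher of its values reached the floor of 7.28, the median of all values, which 54 of the 58 ribosomal protein genes did, each on both arrays. The ribosomal protein genes lay close to level, and they did not move as a block. Their median difference was 0.04, beside -0.08 over all 10658 genes measured by this rule. Of the 54, 29 were higher (53.7%) and 25 lower, where 41.1% of all measured genes were higher. Past 1.5-fold, the fold used for counting, were 2 genes that were higher (3.7%) and 2 that were lower (3.7%), where 7.54% of all measured genes were higher and 8.81% lower. No ribosomal protein gene reached 2-fold, beside 2.96% of all genes higher and 1.59% lower. Of the 45 canonical genes above a stricter floor of 9.07, 11 passed 1.2-fold upward and 5 downward (20.9% and 30.3% of the 5445 genes above it), 1 and 0 passed 1.5-fold (8.1% and 8.83%), and 0 and 0 passed 2-fold (3.38% and 1.32%). The 1 gene past 1.5-fold, Rps15a (8.47 and 9.11), reached this floor only in the array labelled deficient. Rpl14 (8.99 and 8.23), lower by over 1.5-fold, lay under it on both arrays, so the split of 1 and 0 depends on the floor.

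At 1.2-fold, 12 of the 54 were higher (22.2%) and 9 lower (16.7%), beside 19.6% and 30.5% of all measured genes. This split depended on how the arrays were put on a common scale. It was 15 higher and 7 lower after quantile normalization, 15 and 8 after subtraction of a loess curve on level, and 21 and 4 after centring. The counts over all genes at or above the floor moved as well. They were 2086 and 3255 before rescaling, 2481 and 2655 after quantile normalization, 2639 and 2436 after loess, and 3213 and 1876 after centring. At 1.5-fold the split of the ribosomal protein genes stayed 2 and 2 after quantile normalization and loess. It was 4 and 2 after centring, which changed the counts over all genes from 804 and 939 to 1230 and 481. Centring shifts every difference by 0.15, the size of the median over all 19871 genes, those under the floor included. It moved the median over the genes at or above the floor from -0.08 to 0.07. The SD of the differences was 0.33 across the 54 genes and 0.48 across all measured genes. Bright genes varied less in general: the SD was 0.45 for the 1535 genes with a mean from 10 to 11, 0.39 for the 659 from 11 to 12, 0.34 for the 236 from 12 to 13 and 0.25 for the 43 from 13 to 14. Of the 58 ribosomal protein genes, 45 had a mean between 10 and 14.

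**Figure D1:**
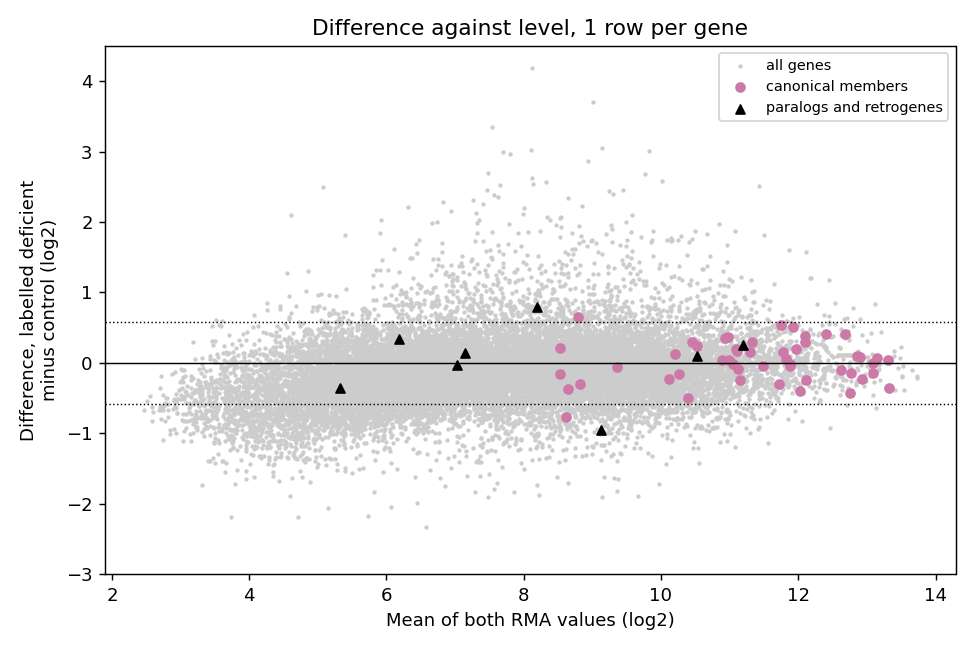
Difference (labelled deficient minus control, log2) against the mean of both RMA values (log2) for each gene, with 1 row per gene; canonical ribosomal protein genes are circles, paralogs and retrogenes triangles, and dotted lines mark 1.5-fold. Most ribosomal protein genes sit at the bright end, within 1.5-fold, and on both sides of 0.

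The higher genes were spread over both subunits. Of the 50 canonical genes, 11 were at least 1.2-fold higher: Rps15a, Rpl27a, Rps7, Rpl6, Rps20, Rpl23, Rps9, Rpl23a, Rps4x, Rps13 and Rpl4. The annotated starts of the 5 highest that have a promoter entry in RefSeq (build GRCm38.p6) are shown to let their pyrimidine runs be compared. Each line gives 15 bases before and 15 from the start, on the strand of the gene, with capitals marking the longest run of C and T that touches the 5 bases on either side of the start.
Rps15a (chr7:118116133-118116162, minus strand): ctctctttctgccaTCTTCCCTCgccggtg
Rpl27a (chr7:109519180-109519209, plus strand): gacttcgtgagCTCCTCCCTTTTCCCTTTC
Rps7 (chr12:28635939-28635968, minus strand): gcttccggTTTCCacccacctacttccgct
Rpl6 (chr5:121204486-121204515, plus strand): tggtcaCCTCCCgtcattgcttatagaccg
Rpl23 (chr11:97782425-97782454, minus strand): acgaggtccggTCacgtggctgagtgggcg
The runs were 9 bases long for Rps15a, 20 for Rpl27a (19 shown), 5 for Rps7, 6 for Rpl6 and 2 for Rpl23.

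Rps15a, a protein of the small subunit body, read 8.47 in control and 9.11 in the array labelled deficient, a difference of 0.65 (1.56-fold). It was the only canonical gene past 1.5-fold upward before rescaling (after centring Rpl27a, at 0.69, and Rps7, at 0.66, passed as well), and its single row is among the dimmer ones of the set. The 2 further rows that list Rps15a beside pseudogenes of it differed the other way, by -0.12 and -0.07. Rpl27a, a large subunit protein conserved from bacteria to mammals, read 11.5 and 12.0, a difference of 0.54 (1.45-fold). Of its 9 rows, 8 were higher and 1 was lower, from -0.07 to 0.59.

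Rps7, which also binds the p53 regulator Mdm2, read 11.7 and 12.2, a difference of 0.51 (1.43-fold), and its 3 rows all were higher, by 0.46 to 0.57. Rpl6, a large subunit protein without a bacterial counterpart, read 12.2 and 12.6, a difference of 0.42, with 3 of 3 rows higher by 0.42 to 0.63. Rps20, in the head of the small subunit, read 12.5 and 12.9 on its only row, a difference of 0.41. These 3 genes were higher on every row they had.

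Rpl23a, which sits at the exit of the peptide tunnel where the signal recognition particle docks, read 10.8 and 11.1, a difference of 0.35. It had the most rows of the set, and all 13 were higher, by 0.26 to 0.53. Some of the 13 hold values identical to those of another row, so they are not 13 separate measurements. Rps4x, the X-linked small subunit protein, read 11.9 and 12.2, a difference of 0.29, and its 5 rows were higher by 0.29 to 0.58. Rps13 read 10.3 and 10.6 (0.29, 3 of 3 rows higher), and Rpl4, whose loop lines the peptide tunnel, read 11.2 and 11.5 (0.29, 1 row).

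The rows of Rpl23 and Rps9 disagreed. Rpl23, at the face of the large subunit that meets the small one, read 11.9 and 12.3 on the kept row (0.38), but 9.15 and 8.63 on its other row (-0.52). Rps9, at the entry of the messenger RNA channel, read 10.8 and 11.2 on the kept row (0.36) and 10.73 and 10.70 on the other (-0.03). The direction of these genes therefore depends on the row.

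Of the canonical genes, 8 were at least 1.2-fold lower: Rpl14, Rpl34, Rpl41, Rpl37a, Rps3a1, Rps6, Rpl30 and Rpl7a. Each of the 8 stayed below 0 after centring, quantile normalization and loess. The starts of the lowest 5, which are also the lowest 5 with a RefSeq promoter entry, are shown in the same way.
Rpl14 (chr9:120571502-120571531, plus strand): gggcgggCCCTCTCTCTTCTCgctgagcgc
Rpl34 (chr3:130730384-130730413, minus strand): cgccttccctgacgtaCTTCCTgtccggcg
Rpl41 (chr10:128549154-128549183, minus strand): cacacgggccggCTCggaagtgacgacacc
Rpl37a (chr1:72711245-72711274, plus strand): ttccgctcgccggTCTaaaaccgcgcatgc
Rps3a1 (chr3:86142654-86142683, minus strand): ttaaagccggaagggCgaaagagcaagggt
The runs were 14 bases long for Rpl14, 6 for Rpl34, 3 for Rpl41, 3 for Rpl37a and 1 for Rps3a1. Long and short runs thus occurred on both sides.

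Rpl14, a large subunit protein found in eukaryotes and not in bacteria, read 8.99 in control and 8.23 in the array labelled deficient, a difference of -0.76 (1.69-fold lower) on its only row. It was the only canonical gene past 1.5-fold downward. Rpl34 read 10.6 and 10.2 (-0.49, 1 row), and the 4 rows that list it beside other symbols also were lower, by -0.26 to -0.18. Rpl41, the smallest ribosomal protein, a short and highly basic peptide, read 13.0 and 12.5 (-0.42), and its 3 rows hold identical values, so they are 1 measurement. Rpl37a, a zinc-binding protein of the large subunit, read 12.2 and 11.8 (-0.40, 1 row), with 3 rows of several symbols lower by -0.37 to -0.35.

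Rps6, the small subunit protein that S6 kinases phosphorylate below mTORC1, read 13.5 and 13.1, a difference of -0.35 (1.28-fold lower). All 8 of its rows were lower, by -0.43 to -0.26. Rpl7a read 11.9 and 11.6 (-0.29), with 3 of 3 rows lower by -0.35 to -0.29. After these in the order came Rps28 (11.3 and 11.0, -0.25, 7 of 7 rows lower) and Rpl9 (12.2 and 12.0, -0.24, 8 of 8 rows lower). Neither reached 1.2-fold on the kept row. Rows of Rps28, some of them identical, ranged from -0.46 to -0.25, and those of Rpl9 from -0.43 to -0.03. With the mean of rows both passed 1.2-fold downward (-0.35 and -0.27).

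For Rps3a1 and Rpl30 the direction depends on the row. Rps3a1, on the platform of the small subunit, read 8.83 and 8.46 (-0.37) on its only row, but the 2 rows that list it beside other symbols differed by -0.05 and 0.16. Rpl30, a large subunit protein shared with archaea, read 8.97 and 8.67 (-0.30), and the 10 rows that list it with other symbols were all higher, by 0.00 to 0.18. Of 18 ribosomal protein genes that are also named on rows of several symbols, the median of those rows had the same sign as the kept row for 13 and the opposite sign for 5.

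**Figure D2:**
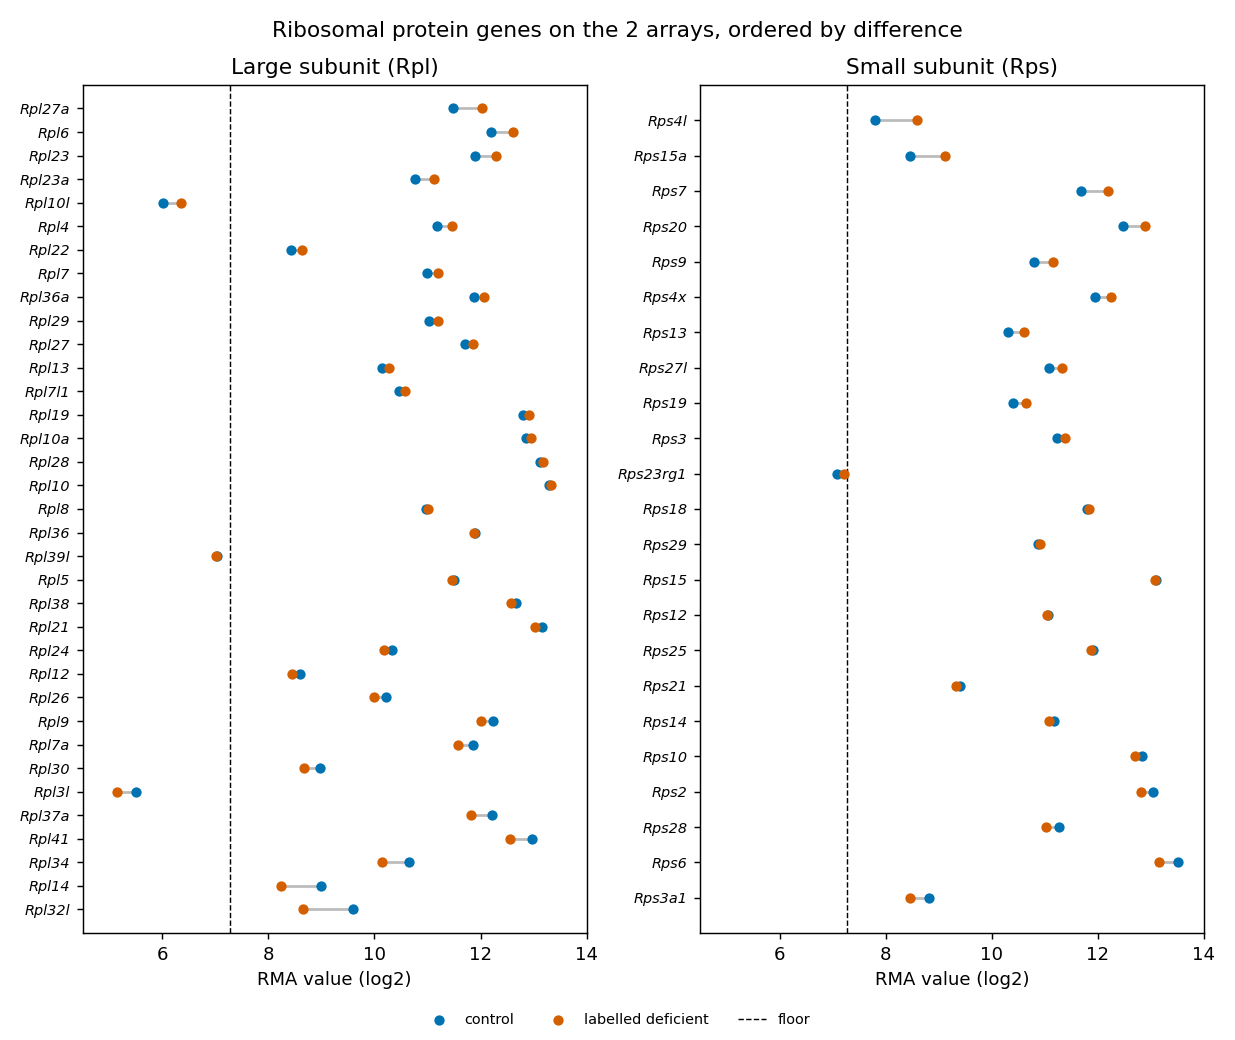
RMA values (log2) of the 58 ribosomal protein genes in the control array (blue) and the array labelled deficient (orange), for the large and the small subunit, ordered by difference; the dashed line is the floor of 7.28. Rpl27a and Rps4l have the largest positive differences of their subunits, Rpl32l and Rps3a1 the largest negative ones, and the paralogs Rpl3l, Rpl10l, Rpl39l and Rps23rg1 lie below the floor.

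The other 31 canonical genes lay within 1.2-fold on the kept rows. They hold several proteins with known roles beyond the ribosome. Rpl5, which carries the ribosomal RNA of the central protuberance and binds Mdm2, read 11.50 and 11.46 (-0.04, with 4 of 5 rows lower, and 0.11 after centring). Rps19, the gene most often mutated in Diamond-Blackfan anaemia, an inherited failure of red cell production, read 10.4 and 10.6 (0.25). The 3 rows that list Rps19 beside other symbols differed by -0.19 to 0.02. Rpl22, which is needed for the development of some T cells, read 8.42 and 8.64 (0.21). The 8 measured members of a list of genes mutated in that anaemia had a median of 0.00, from Rps28 at -0.25 to Rps7 at 0.51.

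On the kept rows the subunits had similar medians, and on other rows they differed. The 30 large subunit genes had a median of 0.04, and past 1.2-fold lay 5 with a positive and 6 with a negative difference. The 20 small subunit genes had a median of 0.02, and 6 were higher and 2 lower by that measure. Of all measured genes, 19.6% were higher and 30.5% lower by that measure. The large subunit lay below both shares, and the small subunit above the first and below the second. With the mean of a symbol's rows the large subunit median was 0.01 and that of the small subunit 0.14, and with the dimmest row -0.07 and 0.14. Within the small subunit, the 10 head proteins had a median of 0.02 (1 at least 1.2-fold higher, 0 lower) and the 10 proteins of body and platform 0.12 (5 higher, 2 lower). The head lay below both shares of all measured genes, and body and platform above the share of higher genes and below that of lower ones. Of the 4 measured proteins of the peptide tunnel and its exit, Rpl23a (0.35), Rpl4 (0.29) and Rpl19 (0.10) had positive differences and Rpl26 a negative one (-0.23).

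The canonical genes were also split by conservation. Proteins with counterparts in bacteria had a median of 0.07, with 15 of 22 positive, 8 at least 1.2-fold higher and 0 lower. Proteins without a bacterial counterpart had a median of -0.05, with 11 of 28 positive, 3 at least 1.2-fold higher and 8 lower. Positive differences thus made up 68.2% of the conserved group and 39.3% of the other, beside 41.1% of all measured genes. The group without bacterial counterparts lay close to that share. The higher genes are 36.4% of the conserved group and 10.7% of the other, beside 19.6% of all measured genes. The 8 lower genes are 28.6% of their group, close to the 30.5% of all measured genes, and the 0 of 22 conserved proteins lie below that share. The medians kept their signs after quantile normalization (0.14 and -0.01) and loess (0.08 and -0.02). Centring made both positive (0.22 and 0.10), beside 0.07 over all measured genes. With the mean of all rows of a symbol, the counts were 6 higher and 1 lower for conserved proteins and 5 and 11 for the others. No test was made of this difference.

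Many ribosomal protein genes have processed pseudogenes in the mouse genome, and rows that carry the same symbol can read the same messenger RNA. In all, 36 of the 58 symbols had over 1 row, and they filled 183 rows. All rows had the same sign for 19 of the 36 (10 higher, 9 lower) and both signs occurred for 17. Among the 29 symbols with at least 3 rows of distinct values (160 rows), the SD between the rows of a symbol was 0.14, and the SD between the symbols' means was 0.27. Rows of a symbol share sequence and RNA, so this spread is not that of replicate cultures. For 10 rows the values of both arrays repeated those of another row.

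The rows of Rpl23, described above, lay farthest apart, and those of Rpl27a, Rps10, Rps21, Rps12, Rpl21 and Rps18 also spread widely. Rps10, in the head of the small subunit, read 12.8 and 12.7 on the kept row (-0.14), but its other rows fell by 0.59 and 0.73. Rps21 read 9.40 and 9.33 (-0.06) on the kept row and differed by -0.61 on the other. Rps12 ranged from -0.42 to 0.14 over 11 rows, some of them identical, and Rpl21 from -0.46 to 0.30 over 9. Rps18 read 11.79 and 11.84 (0.05) on the kept row, while its 7 rows were all higher, by up to 0.59. The kept row, being the brightest, had the difference closest to 0 in Rps18, Rps10 and Rps21.

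**Figure D3:**
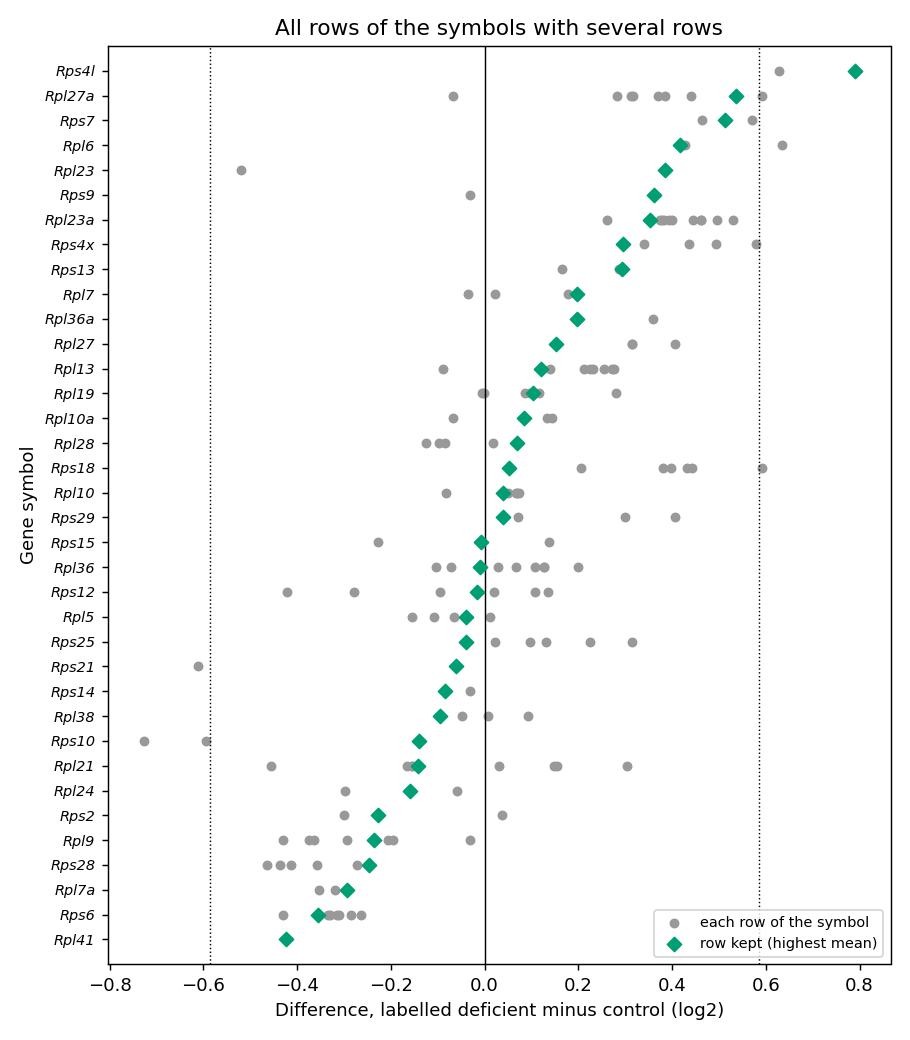
Difference (labelled deficient minus control, log2) of every row of the 36 symbols with over 1 row; green diamonds are the rows kept, grey points the other rows, and dotted lines mark 1.5-fold. The 13 rows of Rpl23a, some with identical values, all lie above 0 and the 8 rows of Rps6 all below, while Rpl23 has a row on either side.

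The paralogs and retrogenes went separate ways. Rps4l, a paralog of Rps4x, read 7.79 in control and 8.58 in the array labelled deficient, a difference of 0.79 (1.73-fold), and 0.63 on its second row. Rps4x itself was higher too (0.29). Rpl32l, a gene similar to Rpl32, read 9.60 and 8.66 (-0.95, 1.93-fold lower), the largest difference of the set in either direction. The row that lists it together with Rpl32 differed by -0.05. Close copies may share probe signal, which the values do not separate.

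Rps27l, a paralog of Rps27 that p53 switches on, read 11.1 and 11.3 (0.26), and Rpl7l1 read 10.5 and 10.6 (0.11). The other 4 were below the floor on both arrays. Rpl3l, which replaces Rpl3 in muscle, read 5.50 and 5.14, Rpl10l, a testis form of Rpl10, read 6.01 and 6.35, Rpl39l, a germ cell form of Rpl39, read 7.03 and 7.01, and the Rps23 retrogene Rps23rg1 read 7.08 and 7.22. By the higher of the values, the nearest gene under the floor was Rps23rg1, 0.06 below it, and the nearest over it Rps4l, 1.31 above it. RMA values carry no detection call, so a value under the floor is dim and not proof of absence.

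Cytosolic ribosomal proteins with other symbols are not covered by the selection, and 5 of them were measured. The stalk proteins Rplp0 (13.0 and 13.1, 0.12) and Rplp1 (13.12 and 13.17, 0.04), which recruit the elongation factors, were nearly level. Rplp2, their partner in the stalk, was read by a dim row at 7.74 and 7.22 (-0.52). Rpsa, which is also known as the laminin receptor, read 11.3 and 11.5 (0.20, but -0.04 on its dimmest row), and Fau, which encodes a small subunit protein fused to a ubiquitin-like domain, 12.4 and 12.5 (0.15).

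Other genes of translation were compared by the same rules. The 15 translation factors and other genes whose messages carry a TOP start had a median of 0.06. Of these, 3 passed 1.2-fold upward (20.0%) and 1 downward (6.7%), beside 19.6% and 30.5% of all measured genes. The initiation factor subunits Eif3l (11.6 and 12.0, 0.43) and Eif3h (11.4 and 11.8, 0.39) were highest. The elongation factor Eef1a1 (13.7 and 13.3, -0.39) and the histone chaperone Nap1l1 (10.5 and 10.3, -0.25) were lowest. Like the ribosomal proteins, this list held differences of either sign.

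The 25 other initiation factors had a median of -0.12 (0.04 after centring), with 4 at least 1.2-fold higher and 6 lower. Both counts were smaller shares than the 19.6% and 30.5% of all measured genes. Eif6, which keeps the subunits apart until the large one is mature (10.6 and 11.2, 0.58), and Eif5a, which relieves stalled ribosomes (12.0 and 12.4, 0.41), were highest. Eif5, the factor that triggers GTP hydrolysis at the start codon (11.5 and 10.7, -0.82), and Eif4g2 (11.9 and 11.5, -0.40) were lowest. Eif5 passed 1.5-fold, and Eif6 lay just under it, passing it after quantile normalization (0.60), loess (0.63) and centring (0.74).

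The 67 ribosome assembly factors had a median of -0.08, beside the same rounded value over all measured genes. At least 1.2-fold higher were 9 (13.4%) and lower 16 (23.9%), beside 19.6% and 30.5% of all measured genes. Gar1, of the particles that pseudouridylate ribosomal RNA (8.21 and 9.27, 1.06), and Nip7 (7.75 and 8.21, 0.46) were highest, and Utp18 (8.68 and 7.93, -0.75) and Mrto4 (8.09 and 7.40, -0.69) lowest. The 14 RNA polymerase I genes had a median of -0.06, from the initiation factor Rrn3 (0.41) and the subunit Znrd1 (0.29) down to Taf1d (-0.80, or -0.35 with the mean of its rows) and Twistnb (-0.62). Both medians turned positive after centring (0.07 and 0.09, beside 0.07 over all measured genes) and loess (0.005 and 0.02, beside 0.0004).

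Of 27 measured genes of mTORC1 and its effectors, 2 passed 1.2-fold upward (7.4%) and 8 downward (29.6%), beside 19.6% and 30.5% of all measured genes. The 27 had a median of -0.11 (0.04 after centring, beside 0.07 over all measured genes). Lamtor2 (0.35) and Nprl3 (0.29), from complexes that anchor and restrain mTORC1 at the lysosome, were highest. The translation repressor Eif4ebp2 (10.5 and 9.72, -0.78) and Lamtor4 (11.2 and 10.5, -0.71) were lowest. Larp1, which binds TOP messages, read 10.70 and 10.71 (0.01) on its brightest row, but differed by -0.30 on its dimmest. Mtor read 9.22 and 8.81 (-0.41). Larp1 and Mtor were chosen after their values were seen.

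The mitochondrial ribosome, whose proteins are encoded by other nuclear genes, had 75 measured genes with a median of -0.11 (0.04 after centring), beside 0.04 for the 54 cytosolic ones. Past 1.2-fold, 11 of the 75 mitochondrial genes were higher and 18 lower, both smaller shares than the 19.6% and 30.5% of all measured genes. Past 1.5-fold, 3 were higher and 7 lower. The share of higher genes lay below the 7.54% of all measured genes, and that of lower genes close to the 8.81%. Mrpl54 (8.73 and 9.75, 1.02) and Mrpl11 (8.45 and 9.26, 0.81) were highest, and Mrps21 (11.1 and 10.2, -0.96) and Mrps24 (9.75 and 8.88, -0.87) lowest. The mitochondrial genes lay at lower levels (median 8.90 in control, against 11.2 for the cytosolic ones), where differences are wider across all genes. The difference between these lists was not tested.

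**Figure D4:**
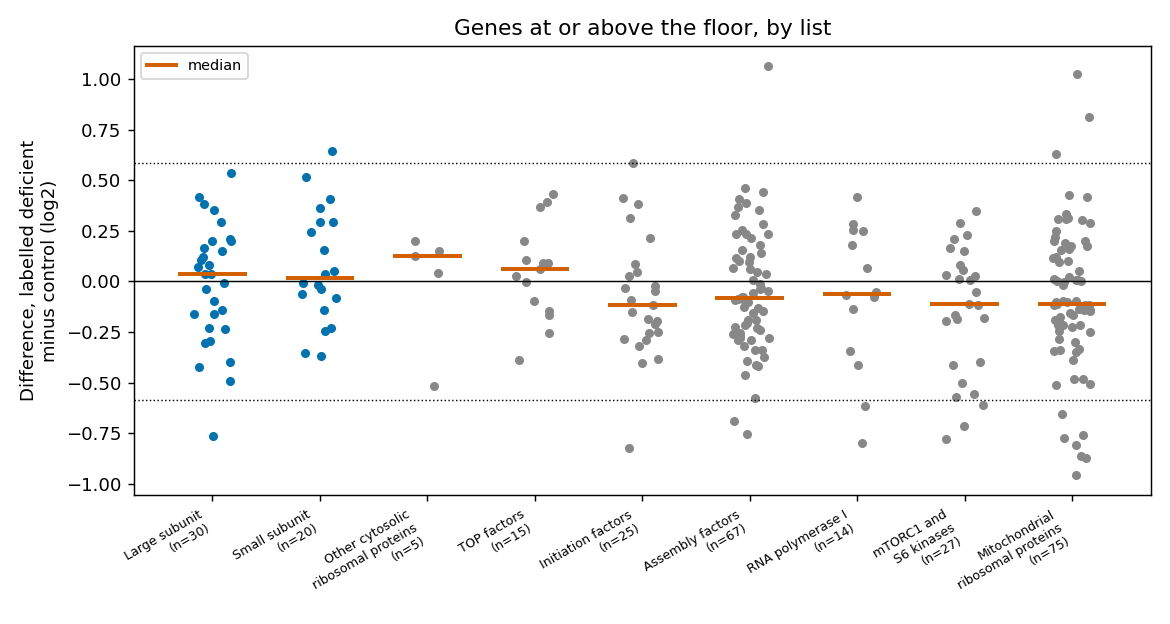
Difference (labelled deficient minus control, log2) of each gene at or above the floor, by list; orange bars are medians and dotted lines mark 1.5-fold. The medians run from -0.12 for the initiation factors to 0.12 for the ribosomal proteins with other symbols. After centring the initiation factors were at 0.04, beside 0.07 over all measured genes. Every list holds genes on both sides of 0.

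Promoter entries from RefSeq (300 bases, 250 before the annotated start and 50 from it, GRCm38.p6) matched 47 of the 58 ribosomal protein genes. A run of at least 8 pyrimidines touching the 5 bases on either side of the start, read on the gene's strand, occurred in 11 of 40 canonical genes (27.5%), beside 9.3% of 27025 promoters of all genes and 9.24% of the 15522 that belong to genes of the value table. Shares below are given beside these groups in that order. It occurred in 4 of the 9 matched genes that were at least 1.2-fold higher, in 3 of the 7 that were lower and in 4 of the 24 between. The ETS family motif CCGGAAG, searched on both strands, was in 14 of 40 (35.0%, beside 9.12% and 12.5%). The Sp1 motif GGGCGG was in 22 (55.0%, beside 35.9% of all and 7757 of the 15522) and the YY1 motif AAGATGG in 3 (7.5%, beside 6.48% and 6.42%), both close to the share among genes of the value table. The letters TATAAA between 40 and 16 bases before the start, on the gene's strand, were in 0 of 40, beside 2.22% and 2.59%. CCGGAAG was in 3 of the 9 higher, 3 of the 7 lower and 8 of the 24 others, and GGGCGG in 5, 5 and 12. These matches describe letters in a window around an annotated start, and a start annotated a few bases off moves the run.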

How the data were processed

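Per the submitters' processing notes, the deposited log2 values came from RMA, a method of background correction, normalization and probe summary. Its version, settings and any row filter are not given in the sources. The columns' quantiles differ (first quartiles 6.10 and 5.83, SDs 2.08 and 2.21), so no joint quantile normalization is visible in them. The log2 scale was taken from the range, 2.12 to 14.1. Gene names came from the platform annotation at GEO, where 21632 rows had 1 symbol, 1560 several and 2725 none. Entrez IDs matched the RefSeq table (GRCm38.p6) for 21537 of the first and changed 0 symbols. The number of arrays, 1 per group, limits the precision.

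Differences, medians and counts past 1.2-, 1.5- and 2-fold were computed with Python 3.11.15 and pandas 2.3.3, and the loess curve (span 0.3) with statsmodels 0.14.6. The procedure was tested on simulated data. Members and lists were chosen with earlier results of these data known. Named genes are the 10 highest and 10 lowest canonical members by difference, paralogs, members past 1.5-fold, members with over 1 row (those not described are counted), members with roles beyond the ribosome, and the 2 highest and 2 lowest of each comparison list. Alternatives were no floor, a floor of 9.07 (75th percentile) or on the mean, centring, quantile normalization, loess, other rows per symbol and other folds. The promoter motifs and the definition of a pyrimidine run were chosen after the files were seen. The YY1 motif was shortened by 1 letter after its counts were seen.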

Additional observations from a re-analysis of the deposited data

How the results depend on the processing

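No paired analysis was possible because each group has 1 array, and for the same reason no replicate could be left out. A median was taken to have moved when it changed sign or by over 0.1, since no spread between replicates exists. The median of the ribosomal protein genes stayed positive under every alternative run, from 0.028 with the dimmest rows to 0.19 after centring. The genes past 1.5-fold were 4 higher after centring; 4 lower with the dimmest rows; 1 higher and 1 lower with the floor of 9.07; 12 and 9 at 1.2-fold; and 0 and 0 at 2-fold. With rows of several symbols included, chosen after seeing the data, they were 1 and 1, and Rps15a reversed to -0.12. Centring, which adds 0.15 by construction, put the median over all measured genes at 0.072. It gave medians of 0.19 for the large subunit, 0.17 for the small, 0.22 for conserved proteins and 0.10 for those not in bacteria. Ribosomal proteins with other symbols were at 0.28, TOP factors at 0.21, initiation factors at 0.036 and assembly factors at 0.070. RNA polymerase I was at 0.091, mTORC1 genes at 0.041 and mitochondrial ribosomal proteins at 0.038. Loess gave 0.0049 for assembly factors, 0.024 for RNA polymerase I and -0.0053 for mTORC1 genes. The small subunit median was 0.14 with the mean of rows (0.1395) and with the dimmest rows (0.1362), which put the large subunit at -0.068, and RNA polymerase I was at 0.0058 with the floor of 9.07. Except for what centring and loess do by construction, the cause was not tested. Without replicates, no difference here can be set against the spread between cultures.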
